A study of Rattus norvegicus with 8 samples.

Results

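Surviving and dying neurons of the rat hippocampus were compared across gene functions, using the array probes drawn from RefSeq transcripts. Of 41012 probes besides controls on each array, 24588 carried the accession of a RefSeq messenger RNA. Of these, 16683 were tested, because the scanner software marked them well above background on both arrays of the surviving or of the dying neurons. They represent 9849 of 13455 genes. Genes in the study's tables of array expression were left out of the gene families. Genes found only in its primer and antibody tables were counted in the families but are not named outside the marker lists.

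The study captured neurons by laser from the CA3 field of the hippocampus of Sprague-Dawley rats 24 hours after moderate fluid percussion injury, a pressure pulse on the dura that models traumatic brain injury. Dying neurons took up Fluoro-Jade, a fluorescent dye that stains degenerating neurons, and surviving neurons lay in the same field without the dye. Each of the 2 pools per group held about 600 neurons, collected from several injured rats. Its poly(A) RNA was amplified in 2 rounds, labelled and hybridized to a 1-colour Agilent whole-genome array. Sham neurons came from rats with sham injury and naïve neurons from untreated rats, also 2 pools each, of the same strain. The 4 arrays of surviving and dying neurons lay on 1 slide and the 4 sham and naïve arrays on another, so slide and injury cannot be told apart wherever sham or naïve values are given. A pool is a bulk sample: fewer cells of a type and less RNA per cell cannot be told apart.

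Pyramidal neurons of CA3 are excitatory cells with strong recurrent connections, and the field is known for its vulnerability after head injury. Neurons of this size depend on oxidative metabolism, on transport along axons, and on calcium signals read by calmodulin and its kinases. Microglia, the resident macrophages of the brain, gather at injured neurons and take up their debris.

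Values are log2 signals relative to the median of all probes on the same array, and a difference is the mean of the surviving minus the mean of the dying arrays, so positive values are higher in surviving neurons. Dying replicate 1 stood apart from the other 3 arrays. Its median signal before scaling was 19.2 intensity units, against 52.6 for dying replicate 2 and 52.2 and 48.2 for the surviving arrays, and 14145 RefSeq probes were above background on it, against 16839, 18142 and 16938. Across 12917 probes above background on all 4 arrays, Pearson's r was 0.915 between the dying replicates, 0.958 and 0.959 between dying replicate 2 and the surviving arrays, and 0.885 and 0.900 between dying replicate 1 and them. These correlations run across probes, which are not independent replicates. The log2 difference between replicates had an SD of 1.20 in dying neurons, against 0.687 in surviving, 0.545 in sham and 0.731 in naïve neurons. For that reason every gene family has 3 medians: with both dying arrays, then in parentheses the surviving mean minus each dying array alone, replicate 1 first. A gene called below lies on the same side of both dying arrays, because a call requires arrays without overlap.

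Markers of pyramidal neurons, listed together with genes of neurons in general, were present in every pool. Neurogranin (Nrgn), a calmodulin-binding protein of forebrain dendrites, read 12.37 and 12.43 in surviving, 11.53 and 11.51 in dying, 13.07 and 12.92 in sham and 12.18 and 12.70 in naïve neurons. The neuronal enolase Eno2 read 11.42 and 11.63 in surviving, 10.52 and 10.65 in dying, 12.98 and 12.75 in sham and 12.07 and 12.50 in naïve neurons. Both genes were strong on all 8 arrays, with each surviving array above each dying array. Of 12 markers in this list, 12 were tested and 7 were higher in surviving neurons, and their median difference was 1.19 (2.10 and 0.72 by dying array). With genes such as Eno2 in it, the list does not separate pyramidal from other neurons. The summed level of the 12, as multiples of the array median, was 9621 and 9791 in surviving, 5060 and 5492 in dying, 20728 and 17579 in sham and 10943 and 15280 in naïve neurons. Among 5 markers of the CA3 field, the kainate receptor gene Grik4 read 5.25 and 5.0 in surviving against -1.07 and 4.97 in dying neurons. It was near the surviving level in dying replicate 2 and scarce in dying replicate 1 alone, where it was not above background. Cpne4, a calcium-binding copine, was likewise low in dying replicate 1 alone, with 7.40 and 7.68 in surviving against 4.33 and 8.13 in dying neurons, so the groups overlapped. The median difference of the CA3 markers was 1.31 (2.96 and 0.66 by dying array), with 2 of 5 higher in surviving and 0 in dying neurons. Those 2 were Grik4 and Bok, of the Bcl-2 family. Over 2-fold above each dying array taken alone were 0 of the 5, beside 917 of all 9849 genes. Their summed level was 451 and 421 in surviving, 156 and 444 in dying, 487 and 471 in sham and 270 and 463 in naïve neurons.

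More genes were higher in surviving than in dying neurons, and the difference was spread over many functions. RefSeq probes that differed over 2-fold between group means, without overlap of the arrays, numbered 3542 higher in surviving (21.2% of those tested) and 974 higher in dying neurons (5.84%). Counted as genes, 1883 were higher in surviving (19.1%) and 662 higher in dying neurons (6.72%), and these shares are the background for the families. No probe passed limma's adjusted p of 0.05 in a model of all 8 arrays, so 0% is the share called by the test. At an unadjusted p under 0.05 there were 2847 (17.1%), and 2039 in a fit of the 4 arrays alone, 2181 with array weights and 2667 with a replicate block, each with 0 past the adjusted threshold. Leaving out dying replicate 2 gave 3127 probes past it, 2440 of them higher in surviving neurons, with the lone dying array assumed to vary like the other groups. Leaving out dying replicate 1 gave 0, with 2991 probes over 2-fold higher in surviving and 1572 in dying neurons. The words higher and lower below therefore describe measured values and no tested change.

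The balance of directions depends on the scaling. The median difference over RefSeq probes was 0.37 and over genes 0.32, and the RefSeq median stood higher against the array median on the surviving arrays. It was 1.33 and 1.26 times the array median there, and 0.956 and 1.09 times on the dying arrays. Of the calls over 2-fold, 78.4% were higher in surviving neurons, against 55.6% when arrays were scaled to the median of RefSeq probes, 99.2% with normexp background correction, and 65.6% and 66.4% without dying replicate 1 and without dying replicate 2. Family medians are therefore also given relative to the median of all genes, and a scaling or filter that turns that relative direction is named with its value. A further limit lies in the filter: 567 RefSeq probes were above background on both surviving arrays and on neither dying array, 57 the other way round, and a gene that passed through its high group had to differ. Tested members are counted against those on the array. The lowest signal called above background also differed by array. It was -2.30 and -1.63 in surviving, -1.35 and -2.07 in dying, -0.30 and -0.15 in sham and -0.77 and -0.81 in naïve neurons. A signal marked above background in an injured pool can therefore go unmarked at the same level in a control pool.

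Among genes above background on all 4 arrays, the 12 of smallest limma p higher in surviving neurons begin with Lsm1, Exosc9 and Cdh10. Lsm1, part of the ring that starts decapping of messenger RNA, read 3.56 and 2.87 in surviving, -0.22 and 0.48 in dying, 5.75 and 5.08 in sham and 4.99 and 4.98 in naïve neurons. Exosc9, a subunit of the RNA exosome, read 3.84 and 3.54 in surviving, 1.23 and 1.0 in dying, 4.83 and 4.40 in sham and 4.63 and 5.16 in naïve neurons. The adhesion protein gene Cdh10 read 4.08 and 3.84 in surviving, 1.62 and 1.72 in dying, 5.64 and 5.66 in sham and 5.13 and 5.25 in naïve neurons. All 3 had surviving arrays well above dying arrays, and both control groups above the surviving level. Their differences were 3.09 ± 0.51, 2.57 ± 0.45 and 2.29 ± 0.41 (SE from limma, 2 pools per group), with adjusted p of 0.0912, 0.0954 and 0.0973. Other probes of Cdh10 gave 2.29 and 3.57. Mrpl16, of the mitochondrial ribosome, was 5.83-fold higher, with 3.11 and 2.90 in surviving against 0.18 and 0.75 in dying neurons. Map1lc3b, which encodes the LC3B protein of autophagosome membranes, read 5.72 and 5.51 in surviving, 2.48 and 3.53 in dying, 7.02 and 6.79 in sham and 6.0 and 6.85 in naïve neurons. Its difference was 2.61, and 1.14 on a brighter probe of the gene. Nicn1, which encodes a subunit of the complex that adds glutamates to tubulin, was 4.48-fold higher, and another probe gave 2.09.

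The remaining 6 of these genes ranged from 4.33-fold to 7.21-fold. Pts, an enzyme of tetrahydrobiopterin synthesis, read 2.76 and 3.06 in surviving against 0.55 and 1.04 in dying neurons. Arhgap15, which switches off the GTPase Rac, was 3.68 and 2.02 above dying replicates 1 and 2. For Nufip1, a nuclear partner of the fragile X protein, the difference was 2.48, but 0.53 on another probe. Ly6e, a lipid-anchored surface protein, differed by 2.68, and by 1.09 on another probe. The orphan receptor gene Gpr26 read 3.22 and 2.52 in surviving against 0.69 and 0.69 in dying neurons, with means of 2.74 in sham and 1.99 in naïve neurons. Slc27a5, a fatty acid ligase known from liver, read 2.13 and 2.10 in surviving, -0.03 and -1.01 in dying, -1.98 and -1.36 in sham and 2.26 and 1.89 in naïve neurons. Sham neurons were not above background for it and naïve neurons were near the surviving level.

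Genes higher in dying neurons, chosen in the same way, begin with Gabrd, Gja5 and Hk3. Gabrd, the delta subunit of GABA-A receptors outside synapses, read 4.02 and 4.01 in surviving, 7.28 and 6.55 in dying, 6.75 and 7.17 in sham and 7.73 and 7.02 in naïve neurons. Dying, sham and naïve neurons were alike in level and both surviving arrays were low. The difference was -2.90 ± 0.49, with an adjusted p of 0.0935. Hk3, a hexokinase of leukocytes, read 2.30 and 2.72 in surviving, 5.66 and 5.04 in dying, -2.55 and -1.53 in sham and -2.98 and -3.04 in naïve neurons. Ptpn6, the phosphatase SHP-1 of blood cells, read 5.55 and 5.22 in surviving, 8.16 and 7.53 in dying, 4.49 and 4.36 in sham and 2.76 and 2.38 in naïve neurons. Gja5, which encodes a connexin of arteries, read 1.67 and 0.85 in surviving, 4.21 and 4.13 in dying, 0.53 and 1.28 in sham and -2.79 and -2.80 in naïve neurons. For these 3 the dying arrays were highest, and for Ptpn6 and Gja5 naïve neurons were lowest. Surviving arrays lay between dying and sham neurons, except that Gja5 overlapped with sham, and Hk3 was not above background in any control pool. Pycard, the adaptor of inflammasomes, was 4.89-fold higher in dying neurons (2.0 and 1.80 in surviving against 4.56 and 3.83 in dying neurons), and controls read 1.66 in sham and 0.76 in naïve neurons.

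Slc2a5, a fructose carrier that marks microglia in brain, was 9.12-fold higher in dying neurons, -3.96 and -2.42 against replicates 1 and 2. Bach1, a repressor of the heme oxygenase gene, read -1.34 and -1.39 in surviving against 0.62 and 1.53 in dying neurons and was not above background in either control group. Its surviving level lay below every signal marked above background on the control arrays. Rgs9, a brake on G protein signals, read 0.37 and -0.42 in surviving, 4.39 and 2.89 in dying, 1.97 and 1.16 in sham and 0.70 and 2.25 in naïve neurons. Id4, which blocks neurogenic transcription factors, read 0.27 and 0.19 in surviving, 2.22 and 2.47 in dying, 2.24 and 2.06 in sham and 2.23 and 2.47 in naïve neurons, so that the surviving arrays were low and the other 3 groups alike. Another probe of Id4 gave -0.83. Tspan1, a tetraspanin, showed the same order, with -0.84 and -0.90 in surviving, 3.54 and 1.91 in dying, 2.71 and 3.28 in sham and 2.31 and 3.97 in naïve neurons. Mlnr, whose deposited description is thyrotropin releasing hormone receptor 2, differed most of the 12 (-4.33), with 1.55 and -0.18 in surviving against 5.60 and 4.42 in dying neurons. Arhgef19, a nucleotide exchange factor, differed by -2.51, and controls read 3.80 in sham and 3.15 in naïve neurons.

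Between surviving and dying neurons, some probes were above background in 1 group only, whatever the sham and naïve pools read. Their folds are lower bounds for the probe, set by the lowest signal called above background on the arrays of the other group. At least is also written below where only 1 array of the lower group was above background, with the other held no lower than that signal. Upb1, of pyrimidine breakdown, stood at least 12.1-fold higher in surviving neurons, with 2.18 and 1.60 in surviving against -3.27 and -3.92 in dying neurons. Zfp574, a zinc finger protein, was at least 10.5-fold higher and Nkap, a nuclear protein of splicing, at least 9.42-fold. Nmd3, the export adaptor of the large ribosomal subunit, was at least 6.10-fold higher, with means of 3.26 in sham and 2.57 in naïve neurons. Tex15 was at least 6.18-fold higher, with another probe of the gene at a difference of 1.43. Wdr70 was at least 11.0-fold higher on 1 probe while its other probe gave -1.87, so its probes point in opposite directions. Among probes above background in dying but not in surviving neurons, Pdzrn3, a ubiquitin ligase, was at least 8.55-fold higher. It read -2.99 and -1.36 in surviving against 1.72 and 0.81 in dying neurons. Loxl3, a lysyl oxidase that crosslinks collagen, was at least 7.46-fold higher, and another probe gave -1.13. Amid, now called Aifm2, was at least 5.07-fold higher, with -0.31 on its other probe. Srd5a1, the steroid 5-alpha-reductase, was at least 11.2-fold higher and Tff3, a trefoil peptide, at least 8.19-fold, but other probes of both gave the opposite sign (1.40 and 1.25). Acss1, a mitochondrial acetyl-CoA synthetase, was at least 6.26-fold higher, with other probes at -0.67 and 0.67.

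Cholesterol synthesis had one of the largest shares of genes higher in surviving neurons. Of the 25 tested genes among 26 on the array, 13 were higher in surviving and 0 higher in dying neurons, or 52% against the background of 19.1%. Pathway genes had a median difference of 1.10 (1.15 and 0.93 by dying array), 0.78 relative to all genes, and 8 of the 25 were over 2-fold above each dying array taken alone, beside 917 of all 9849 genes. Insig1, which holds the sterol sensor in the endoplasmic reticulum, read 6.57 and 6.75 in surviving, 4.64 and 5.16 in dying, 7.94 and 7.78 in sham and 7.33 and 7.69 in naïve neurons. Both surviving arrays lay above both dying arrays and both control groups lay higher still, and its other probes gave 1.43 and 1.78. Fdft1, squalene synthase, read 1.34 and 0.79 in surviving against -1.64 and -0.36 in dying neurons, with dying replicate 1 not above background. Early in the pathway, Hmgcs1 differed by 1.27, Acat2 by 1.09, Mvk by 0.23 and Pmvk by 0.14. From farnesyl diphosphate synthase on, Fdps differed by 1.10, Sqle by 1.45, Lss by 1.26, Cyp51 by at least 2.45, Nsdhl by 1.84 and Sc5d by 2.18. The brightest member, Msmo1, did not differ beyond its replicates, with 9.63 and 9.59 in surviving against 10.04 and 9.23 in dying neurons. Srebf1 and Srebf2, which encode the transcription factors of the pathway, were at -0.47 and 0.58. These further members are listed to cover the pathway and were picked after their values were seen.

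Promoters of this family are shown as an example of a family whose called members had 1 direction. RefSeq (build GRCr8) gave promoters, 250 bases before to 50 after the start, for 9 of the 13 genes higher in surviving neurons and 10 of the other 12. The letters CCAAT, on either strand, were in 7 of the 9 and 8 of the 10, and in 12549 of all 33469 promoters (37.5%). The core of the sterol regulatory element, TCACNCCAC on either strand, was in 0 of the 9, 0 of the 10 and 374 of all (1.12%). The sequences are those of Insig1 (chr4:8057720-8058019, minus strand) and of lanosterol synthase, Lss (chr20:12118181-12118480, minus strand), 5′ to 3′, with capitals marking CCAAT or its complement ATTGG. A match describes the letters in this window and no site.
Insig1: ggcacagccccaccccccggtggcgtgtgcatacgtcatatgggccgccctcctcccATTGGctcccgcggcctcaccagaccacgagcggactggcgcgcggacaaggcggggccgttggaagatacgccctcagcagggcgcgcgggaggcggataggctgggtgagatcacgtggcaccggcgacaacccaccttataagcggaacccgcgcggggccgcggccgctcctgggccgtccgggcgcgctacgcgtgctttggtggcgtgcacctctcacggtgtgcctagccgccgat
Lss: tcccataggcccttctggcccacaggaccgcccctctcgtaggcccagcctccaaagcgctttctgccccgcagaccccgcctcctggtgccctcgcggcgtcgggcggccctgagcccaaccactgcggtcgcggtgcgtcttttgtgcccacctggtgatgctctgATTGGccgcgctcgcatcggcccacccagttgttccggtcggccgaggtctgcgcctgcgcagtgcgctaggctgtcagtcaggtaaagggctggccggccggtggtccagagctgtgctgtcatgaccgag

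Cycle enzymes and the respiratory chain ranked differently by dying array: the cycle had the higher median against dying replicate 1 and the chain against dying replicate 2. Tricarboxylic acid cycle genes were tested for 23 of 25 members, and 12 were higher in surviving and 1 higher in dying neurons. Against dying replicate 2 alone, 5 of the 23 were over 2-fold higher in surviving neurons, beside 1627 of all 9849 genes. Cycle genes had a median difference of 1.15 (1.36 and 0.54 by dying array), 0.83 relative to all genes. Pdha1, of the pyruvate dehydrogenase that feeds the cycle, read 5.89 and 5.99 in surviving against 4.58 and 4.83 in dying neurons. Its partner Pdhb read 5.85 and 5.32 in surviving against 3.23 and 4.41 in dying neurons. In both genes the lower surviving array exceeded the higher dying array. Idh2 went the other way (-1.64), although another of its probes gave 0.55. The brightest member, Idh3g, overlapped between groups (10.65 and 10.56 in surviving against 10.66 and 10.01 in dying neurons).

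Respiratory chain and ATP synthase genes were tested for 74 of 76 members, and 13 were higher in surviving and 0 higher in dying neurons. Chain subunits had a median of 0.32 (-0.15 and 0.71 by dying array), 0.00 relative to all genes but -0.07 with quantile normalization and 1.10 with normexp and 0.11 with members above background on all 4 arrays, so the dying replicates disagreed in sign. Atp5f1b, the catalytic subunit of ATP synthase, read 7.97 and 7.48 in surviving, 5.27 and 6.12 in dying, 9.07 and 8.39 in sham and 8.03 and 8.89 in naïve neurons. Both surviving arrays exceeded both dying arrays in it. Cox8b, a subunit of cytochrome c oxidase, stood at least 4.10-fold higher, while the brightest member, Cox6a1, differed by 0.19. Mitochondrial ribosome and import genes were tested for 83 of 84 members, and 27 were higher in surviving and 0 higher in dying neurons, or 32.5% against 19.1%. Their median was 0.66 (0.60 and 0.67 by dying array), 0.34 relative to all genes. Brightest of them, Mrpl37 differed by 0.17. Timm44, of the import motor, read -2.08 and -1.56 in surviving neurons and was not above background in any dying, sham or naïve pool. That level lies below the lowest signal called above background on dying replicate 1 (-1.35) and on every sham and naïve array. The lower bound of its difference is 0, although it is counted among the 27. Glycolysis genes were tested for 23 of 26 members, and 7 were higher in surviving and 3 higher in dying neurons. Glycolytic genes had a median of 0.80 (0.92 and 0.65 by dying array), 0.48 relative to all genes. Slc2a3, the neuronal glucose carrier, stood at least 9.21-fold higher in surviving neurons (2.35 and 2.39 in surviving, -2.86 and -0.31 in dying, 2.65 and 2.57 in sham and 2.48 and 1.75 in naïve neurons). Pfkl, a phosphofructokinase, read 2.46 and 2.76 in surviving against 0.50 and 1.19 in dying neurons. In the opposite direction, Hk3 and the lactate carrier Slc16a3 (5.77 and 2.97 in surviving against 6.96 and 6.19 in dying neurons) were higher in dying neurons, as was Aldoc, an aldolase of astrocytes (0.60 with normexp).

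With both dying arrays, genes for the calcium response had the largest share higher in surviving neurons among the families. Against dying replicate 2 alone this family did not, with 4 of 18 genes over 2-fold, beside 9 of 25 in cholesterol synthesis. Calcium-dependent enzymes were tested for 18 of 22 members, and 10 were higher in surviving and 0 higher in dying neurons, or 55.6% against 19.1%. Of the 18, 4 were over 2-fold above dying replicate 2 alone, beside 1627 of all 9849 genes. Over 2-fold above each dying array taken alone were 3, beside 917 of all genes. The family median was 1.21 (1.53 and 0.74 by dying array), 0.90 relative to all genes. Camk2g, a calmodulin kinase, was 4.22-fold higher, with 3.85 and 2.56 in surviving, 0.70 and 1.55 in dying, 3.07 and 3.37 in sham and 2.71 and 3.83 in naïve neurons. Its surviving arrays lay above its dying arrays. The brightest member was Calm3, with a difference of -0.05 and 1.32 on another probe, so its probes disagreed. Further members higher in surviving neurons included Calm2, Camkk1, Camk2n2, Prkcz, Ppp3r1, Camk1 and Ppp3cb, from 1.09 to 1.91.

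Receptors and channels differed unevenly. GABA-A receptor genes were tested for 10 of 18 members, and 5 were higher in surviving and 1 higher in dying neurons. These receptors had a median of 1.29 (1.95 and 0.81 by dying array), 0.97 relative to all genes but -0.29 with normexp. Gabrb1, the brightest, read 7.92 and 7.37 in surviving, 5.77 and 6.93 in dying, 8.63 and 8.07 in sham and 7.48 and 7.71 in naïve neurons. Gabra4 stood at least 2.47-fold higher in surviving neurons, without signal above background on a dying array. Gabrd alone was higher in dying neurons among the 10. Glutamate receptor genes were tested for 19 of 23 members, and 4 were higher in surviving and 1 higher in dying neurons. Their median was 0.42 (-0.16 and 0.67 by dying array), 0.10 relative to all genes but -0.10 with quantile normalization and -0.06 with normexp and -0.19 with members above background on all 4 arrays. Gria2, the subunit that keeps AMPA receptors from passing calcium, read 4.78 and 4.29 in surviving, 2.47 and 3.16 in dying, 8.26 and 7.74 in sham and 7.03 and 7.03 in naïve neurons. Controls exceeded surviving neurons for this gene, and dying neurons were lowest. Grm7, a presynaptic metabotropic receptor, differed by at least 0.82, Grin2c by -1.44 (-2.57 and -0.31 against replicates 1 and 2, and 0.05 with normexp), and the brightest, Grin1, by -0.04.

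Potassium channel genes were tested for 60 of 84 members, and 15 were higher in surviving and 5 higher in dying neurons. Potassium channels had a median of 0.44 (0.36 and 0.12 by dying array), 0.13 relative to all genes but -0.36 with normexp and -0.17 with members above background on all 4 arrays. Kcnq5, of the M current, read 0.95 and 1.36 in surviving, -2.29 and -1.0 in dying, 1.13 and 1.37 in sham and -0.50 and 1.16 in naïve neurons, with dying replicate 1 not above background, and Kcnk1 stood at least 3.13-fold higher in surviving neurons. Kcnn4, a calcium-gated channel known from microglia and lymphocytes, read 4.70 and 4.26 in surviving, 7.81 and 6.23 in dying, 1.13 and 1.67 in sham and -0.40 and 1.53 in naïve neurons. Kcnq5 was lowest in dying neurons, while Kcnn4 was high in both injured groups and highest in dying neurons. Kcnk2, a leak channel, differed by -1.79. Sodium and calcium channel genes were tested for 30 of 37 members, and 9 were higher in surviving and 0 higher in dying neurons. Voltage-gated members had a median of 0.47 (0.37 and 0.57 by dying array), 0.15 relative to all genes. Scn3b, the brightest, read 12.23 and 12.20 in surviving against 10.95 and 11.22 in dying neurons. Cacng3, a partner of AMPA receptors, was 4.37-fold higher. Ion pumps and exchangers were tested for 23 of 28 members, and 3 were higher in surviving and 0 higher in dying neurons. Pump genes had a median of 0.35 (0.38 and 0.34 by dying array), 0.03 relative to all genes. Atp1b1, of the sodium pump, read 11.89 and 11.95 in surviving, 10.55 and 11.18 in dying, 13.04 and 12.96 in sham and 12.22 and 12.52 in naïve neurons, and Slc8a2, a sodium-calcium exchanger, stood at least 2.97-fold higher in surviving neurons.

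Synaptic families ranged from vesicle genes above the median of all genes to transmitter transporters below it. Synaptic vesicle and SNARE genes were tested for 41 of 55 members, and 13 were higher in surviving and 2 higher in dying neurons. Vesicle genes had a median of 0.76 (0.81 and 0.47 by dying array), 0.44 relative to all genes. Rab3a, the vesicle GTPase, read 5.94 and 5.37 in surviving, 0.55 and 3.49 in dying, 7.29 and 7.16 in sham and 6.71 and 7.48 in naïve neurons. Dying replicate 1 was far below dying replicate 2 there, and the groups still did not overlap. Syt3 differed by 1.57, Syt2 by -1.89 and the brightest, Syt5, by 0.49. Slc17a6, the vesicular glutamate carrier VGLUT2, was higher in dying neurons, with 3.27 and 3.42 in surviving, 4.77 and 5.0 in dying, 4.90 and 7.38 in sham and 7.98 and 4.84 in naïve neurons, and the control replicates disagreed. Postsynaptic scaffolds were tested for 19 of 23 members, and 4 were higher in surviving and 0 higher in dying neurons. Scaffold genes had a median of 0.56 (0.51 and 0.67 by dying array), 0.24 relative to all genes. Dlg2, a scaffold of NMDA receptors, read 2.68 and 1.71 in surviving against -3.14 and 0.77 in dying neurons, with dying replicate 1 not above background. Transmitter transporters were tested for 28 of 34 members, and 5 were higher in surviving and 2 higher in dying neurons. Carrier genes had a median of -0.09 (-0.06 and 0.09 by dying array), -0.41 relative to all genes. Slc1a1, the neuronal glutamate carrier, differed by 1.44 and the vesicular carrier Slc17a8 by at least 1.45, while the glutamine carrier Slc1a5 read 3.24 and 2.35 in surviving against 4.69 and 4.10 in dying neurons. The creatine carrier Slc6a8, the brightest, differed by -0.58, but by 1.91 on another probe.

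Neuropeptide and immediate early genes held members in both directions. Neuropeptide genes were tested for 26 of 27 members, and 6 were higher in surviving and 3 higher in dying neurons. Their median was -0.21 (-0.68 and 0.41 by dying array), -0.53 relative to all genes but 0.39 with normexp. Cort, the precursor of cortistatin, differed by -2.36 and Vip by -2.12. The convertases Pcsk2 and Pcsk1 were higher in surviving neurons, by 2.22 and 1.78, and the brightest, the chaperone gene Scg5, by 0.26. Immediate early genes were tested for 22 of 23 members, and 4 were higher in surviving and 5 higher in dying neurons. Early genes had a median of -0.02 (-0.12 and 0.00 by dying array), -0.34 relative to all genes but 0.31 with normexp. Atf3, a stress transcription factor of injured neurons, read 3.55 and 3.87 in surviving, 6.05 and 5.77 in dying, 2.41 and 0.37 in sham and 0.50 and 0.57 in naïve neurons. It was highest in dying neurons, intermediate in surviving neurons and low in controls. Btg2 differed by -1.67, and Egr4 and Nr4a2, which follow synaptic activity, were higher in surviving neurons by 1.54 and 1.23. Jund, the brightest, differed by 0.35 without dying replicate 1, where its spot was non-uniform.

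With both dying arrays, structural genes and Rab GTPases had larger shares higher in surviving neurons than all genes, and motor genes did not. Over 2-fold above each dying array taken alone were 3 of 30 structural and 6 of 39 Rab genes, beside 917 of all 9849 genes. By that count structural genes stood near all genes. Above dying replicate 2 alone they were 8 of 30 and Rab genes 9 of 39, beside 1627 of all 9849. Tubulins, neurofilaments and growth proteins were tested for 30 of 34 members, and 9 were higher in surviving and 0 higher in dying neurons. Structural genes had a median of 0.93 (1.30 and 0.61 by dying array), 0.61 relative to all genes. Tubb3, the neuronal tubulin, read 9.04 and 8.69 in surviving, 7.53 and 6.88 in dying, 9.87 and 9.45 in sham and 9.06 and 9.35 in naïve neurons. Crmp1, of growth cone collapse, stood at least 2.50-fold higher in surviving neurons, and Tubb4b, the brightest, differed by 0.06. Kinesin and dynein genes were tested for 48 of 57 members, and 8 were higher in surviving and 6 higher in dying neurons. Motor genes had a median of 0.55 (0.70 and 0.20 by dying array), 0.23 relative to all genes. Kif21a, an axonal kinesin, read 5.17 and 4.68 in surviving against 1.55 and 3.44 in dying neurons, and Dctn5, of dynactin, stood at least 7.19-fold higher. In dying neurons Kifc1, a kinesin of mitotic spindles, was higher, with 1.68 and 2.21 in surviving, 3.47 and 3.93 in dying, 0.97 and 1.90 in sham and 0.29 and 1.33 in naïve neurons, and Kif7 was 2.64-fold higher. Brightest was Dctn3, at 0.11. Rab GTPases were tested for 39 of 49 members, and 13 were higher in surviving and 0 higher in dying neurons. Rab genes had a median of 0.74 (1.02 and 0.47 by dying array), 0.42 relative to all genes. Rab11b, of recycling endosomes, read 2.21 and 2.08 in surviving against -3.28 and 0.17 in dying neurons, not above background on dying replicate 1, and Rab6b, the brightest, differed by 0.40.

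Signalling families held members in both directions, Eph receptors and ephrins apart. G protein and cyclic AMP genes were tested for 64 of 85 members, and 16 were higher in surviving and 6 higher in dying neurons. Their median was 0.53 (0.36 and 0.44 by dying array), 0.21 relative to all genes but -0.09 with members above background on all 4 arrays. Gng3, a neuronal gamma subunit, read 6.34 and 5.57 in surviving against 3.78 and 4.42 in dying neurons, and Pde6d was 3.56-fold higher. Gna12 was 2.85-fold higher in dying neurons. Gnb1, the brightest, differed by 1.69 on its brightest probe and by -0.04 to 0.88 on others. Prkag2, counted here (1.17), belongs to the AMP-activated kinase. MAP kinase cascade genes were tested for 42 of 50 members, and 11 were higher in surviving and 2 higher in dying neurons. Cascade genes had a median of 0.21 (0.34 and 0.30 by dying array), -0.11 relative to all genes but 0.09 with normexp. Map2k6, an activator of p38 kinases, read 5.24 and 4.56 in surviving against 1.43 and 3.04 in dying neurons, and Map3k7, the kinase TAK1, was 3.33-fold higher. Map3k6 was higher in dying neurons, with 1.25 and 0.75 in surviving against 3.76 and 3.63 in dying neurons. Dusp13b stood at least 1.21-fold higher there, and the brightest, Mapk8ip1, gave -0.62 and, on another probe, 1.88. Eph receptors and ephrins were tested for 13 of 18 members, and 5 were higher in surviving and 0 higher in dying neurons. Guidance genes had a median of 0.83 (1.0 and 0.47 by dying array), 0.51 relative to all genes but -0.22 with normexp. Epha7 differed by 1.64, Efna3 by 1.16 (0.22 on another probe) and the brightest, Ephb6, by 0.74. Growth factors and receptors were tested for 60 of 92 members, and 7 were higher in surviving and 6 higher in dying neurons. Growth signals had a median of 0.14 (-0.12 and 0.25 by dying array), -0.18 relative to all genes. Vegfb read 3.36 and 2.80 in surviving against -0.01 and 1.32 in dying neurons and Wnt4 8.37 and 8.46 in surviving against 7.04 and 7.28 in dying neurons. Bmp1, a protease of collagen precursors, was 6.52-fold higher in dying neurons, with other probes at -1.20 and -0.04, and the brightest, Fgf13, differed by 0.39.

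Ribosomal protein genes had 2 called members and translation factors 12. Cytosolic ribosomal protein genes were tested for 78 of 78 members, and 1 was higher in surviving and 1 higher in dying neurons. Ribosomal proteins had a median of -0.22 (-0.72 and 0.12 by dying array), -0.53 relative to all genes but 0.50 with normexp. Rpl8, the brightest, read 12.35 and 12.37 in surviving against 13.71 and 12.39 in dying neurons, high in dying replicate 1 alone. Rpl36 was higher in both dying arrays, chiefly replicate 1 (10.32 and 10.08 in surviving against 12.59 and 10.83 in dying neurons), but 0.08 with normexp, and Rpl3 was the reverse (6.23 and 6.23 in surviving against 4.77 and 5.52 in dying neurons). Translation factors were tested for 51 of 54 members, and 12 were higher in surviving and 0 higher in dying neurons. Factor genes had a median of 0.51 (0.60 and 0.42 by dying array), 0.19 relative to all genes. Eif2b2, of the exchange factor for initiation factor eIF2, read 7.19 and 6.61 in surviving, 4.96 and 5.08 in dying, 7.48 and 7.25 in sham and 6.62 and 7.43 in naïve neurons. Surviving neurons were near the controls and dying neurons below them. Eef1e1 differed by 1.59, and the brightest, Eef1g, by -0.05, with other probes at 0.90 and 1.56. Eif2c2, counted here by its older symbol (at least 1.19), encodes an Argonaute protein of RNA silencing. Aminoacyl-tRNA synthetases were tested for 27 of 30 members, and 7 were higher in surviving and 0 higher in dying neurons. Synthetase genes had a median of 0.61 (1.10 and 0.19 by dying array), 0.29 relative to all genes. Nars2, the mitochondrial asparagine enzyme, stood at least 5.54-fold higher in surviving neurons, Farsa was 3.65-fold higher, and Tars2, the brightest, differed by -0.22.

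RNA polymerase II and mediator genes were tested for 42 of 49 members, and 13 were higher in surviving and 0 higher in dying neurons. Transcription machinery had a median of 0.71 (0.85 and 0.59 by dying array), 0.39 relative to all genes. Polr2c, a subunit of the enzyme, read 6.15 and 6.16 in surviving against 4.68 and 4.18 in dying neurons. Polr2b, its second largest subunit, was 3.62-fold higher. Gtf2i, the brightest, differed by 0.72, and by -0.49 on another probe, and Ak6, counted here (1.48), encodes an adenylate kinase. Splicing factors and hnRNP genes were tested for 63 of 70 members, and 9 were higher in surviving and 0 higher in dying neurons. Splicing genes had a median of 0.57 (0.54 and 0.33 by dying array), 0.25 relative to all genes. Celf2 differed by 1.85 and the brightest, the neuronal Snrpn, by 0.63. Chromatin enzymes were tested for 71 of 81 members, and 15 were higher in surviving and 2 higher in dying neurons. Chromatin genes had a median of 0.59 (0.60 and 0.37 by dying array), 0.27 relative to all genes. Hdac4, a histone deacetylase that moves between cytoplasm and nucleus, stood at least 2.66-fold higher in surviving neurons, and Sirt2 at least 5.99-fold higher. Hdac10 differed by -1.21 (0.21 with normexp), the brightest, Prmt1, by -0.28, and Jmjd8 by -2.20, with 0.95 on its other probe. Histones were tested for 22 of 26 members, and 2 were higher in surviving and 0 higher in dying neurons. Histone genes had a median of -0.01 (-0.39 and 0.11 by dying array), -0.33 relative to all genes but 0.52 with normexp. The replacement histone gene H3f3b read 9.38 and 9.30 in surviving against 7.67 and 8.63 in dying neurons, Hist3h2ba 2.87 and 2.69 in surviving against 1.86 and 0.64 in dying neurons, and the brightest, H2az1, differed by 0.54.

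With both dying arrays, branches of protein turnover had shares higher in surviving neurons of 21.2% to 30%, beside 19.1% of all genes. Over 2-fold above dying replicate 2 alone were 19 of 83 conjugation, 6 of 40 proteasome and 5 of 33 deubiquitinase genes, beside 1627 of all 9849. Proteasome and deubiquitinase genes did not exceed the share of all genes there. Ubiquitin conjugation genes were tested for 83 of 96 members, and 21 were higher in surviving and 1 higher in dying neurons. Conjugation genes had a median of 0.68 (0.83 and 0.51 by dying array), 0.36 relative to all genes. Uba3, which activates Nedd8, read 0.93 and 0.93 in surviving, -0.53 and -0.62 in dying, 5.13 and 4.89 in sham and 4.28 and 4.37 in naïve neurons. Surviving replicates were alike, dying replicates were alike, and both control groups were far above them. Ube2g1 stood at least 4.20-fold higher in surviving neurons. Ube2c, which serves the anaphase-promoting complex in dividing cells, was the exception, with 0.85 and 0.57 in surviving, 3.36 and 2.78 in dying, 0.24 and -1.54 in sham and -2.79 and -1.09 in naïve neurons. Ubb, the brightest, differed by 0.28 without dying replicate 1, where its spot was non-uniform, and by -0.27 on another probe. Proteasome subunits were tested for 40 of 40 members, and 12 were higher in surviving and 0 higher in dying neurons. Proteasome genes had a median of 0.54 (0.64 and 0.44 by dying array), 0.22 relative to all genes. Psmb7, a catalytic subunit, read 7.49 and 7.20 in surviving, 4.13 and 5.52 in dying, 9.15 and 8.44 in sham and 8.16 and 8.72 in naïve neurons. Psmd13 was 3.96-fold higher and the brightest, Psmc5, differed by 0.32. Deubiquitinases were tested for 33 of 47 members, and 7 were higher in surviving and 1 higher in dying neurons. Deubiquitinase genes had a median of 0.44 (0.57 and 0.35 by dying array), 0.12 relative to all genes. Usp11 differed by 1.59, Otub2 by at least 1.61, Usp40 by -1.69 and the brightest, Usp14, by 0.62.

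Heat shock proteins and chaperonins were tested for 73 of 76 members, and 21 were higher in surviving and 4 higher in dying neurons. Chaperone genes had a median of 0.69 (0.91 and 0.43 by dying array), 0.37 relative to all genes. Dnajb13 read 4.45 and 4.08 in surviving against 2.45 and 2.62 in dying neurons and Dnajb4 0.12 and 0.40 in surviving against -3.02 and -1.33 in dying neurons, the latter not above background on dying replicate 1. Cryab, a small heat shock protein of glia and lens, was higher in dying neurons, with 7.34 and 7.23 in surviving, 9.30 and 8.24 in dying, 8.11 and 7.87 in sham and 6.96 and 7.83 in naïve neurons, but 0.09 with normexp. Bag3 differed by -1.0, but by 0.42 with normexp. The brightest, Cct3, differed by -0.06, and by 1.35 on another probe. Genes of endoplasmic reticulum stress were tested for 23 of 25 members, and 4 were higher in surviving and 2 higher in dying neurons. Stress genes had a median of 0.45 (0.69 and 0.30 by dying array), 0.13 relative to all genes. Asns, asparagine synthetase, differed by 1.80 and the chaperone gene Calr by 1.51, while the sensor Atf6 stood at least 2.64-fold higher in dying neurons and the pseudokinase Trib3 gave -1.39. Atf4, the brightest, differed by 0.82. Autophagy genes were tested for 22 of 23 members, and 8 were higher in surviving and 2 higher in dying neurons. Their median was 0.55 (0.57 and 0.66 by dying array), 0.23 relative to all genes. Atg5, needed to attach LC3 to membranes, read 2.83 and 2.19 in surviving, -0.76 and 1.27 in dying, 3.64 and 3.73 in sham and 3.36 and 3.33 in naïve neurons, and Bnip3, a receptor for mitochondria, was 4.05-fold higher in surviving neurons. Wipi1 gave -1.20, Atg16l2 -1.01 (0.32 with normexp), and the brightest, Map1lc3a, 0.24.

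Lysosome and V-ATPase genes were tested for 48 of 58 members, and 13 were higher in surviving and 4 higher in dying neurons. Lysosomal genes had a median of 0.29 (0.30 and 0.32 by dying array), -0.03 relative to all genes but 0.04 with quantile normalization and 0.63 with normexp and 0.08 with members above background on all 4 arrays. The 13 were 11 subunits and partners of the proton pump with Psap and Lamp2, and the 4 were the cathepsins Ctss, Ctsc, Ctse and Ctsz. Atp6v0c, of the pump's membrane ring, read 9.74 and 9.43 in surviving, 7.55 and 8.16 in dying, 10.26 and 9.84 in sham and 9.47 and 10.23 in naïve neurons. Ctss, cathepsin S, known from microglia, read 4.05 and 3.25 in surviving, 5.81 and 5.71 in dying, 5.90 and 5.33 in sham and 5.15 and 5.99 in naïve neurons. The pump subunit was low in dying neurons alone, and the cathepsin was low in surviving neurons alone. Atp6v1e1 differed by 2.16, Ctsc by -1.67 (0.14 with normexp) and the brightest, Ctsb, by 0.02. Antioxidant defence was tested for 63 of 73 members, and 18 were higher in surviving and 0 higher in dying neurons. Antioxidant genes had a median of 0.48 (0.34 and 0.57 by dying array), 0.16 relative to all genes. Glrx, glutaredoxin, read 8.22 and 8.03 in surviving, 6.63 and 6.05 in dying, 9.38 and 8.71 in sham and 8.46 and 9.0 in naïve neurons. Txnrd3 stood at least 1.37-fold higher in surviving neurons, and Mt3, the brightest, a brain metallothionein, differed by -0.66 (-1.41 and 0.08 against replicates 1 and 2).

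Cell death families had shares higher in dying neurons near that of all genes (8.33% and 7.41% beside 6.72%). Bcl-2 family genes were tested for 12 of 18 members, and 1 was higher in surviving and 1 higher in dying neurons. Apoptosis switches had a median of 0.17 (-0.04 and 0.41 by dying array), -0.15 relative to all genes but 0.30 with normexp and 0.09 with members above background on all 4 arrays. Bak1, which opens the mitochondrial membrane, read 4.08 and 3.49 in surviving, 5.72 and 4.79 in dying, 3.79 and 3.41 in sham and 2.45 and 2.20 in naïve neurons, and Bok, its relative, 4.43 and 3.90 in surviving, 1.21 and 3.32 in dying, 4.65 and 4.27 in sham and 4.23 and 4.65 in naïve neurons. Bak1 was highest in dying neurons and Bok lowest there, chiefly in dying replicate 1. Bad, the brightest, differed by 0.29. Caspases, calpains and their regulators were tested for 27 of 40 members, and 2 were higher in surviving and 2 higher in dying neurons. Protease genes had a median of 0.26 (-0.06 and 0.36 by dying array), -0.06 relative to all genes but 0.02 with members above background on all 4 arrays. The calpain subunit gene Capns1 differed by 1.58, and by under 2-fold against dying replicate 2. Ripk3, a kinase of necroptosis, read 4.02 and 3.25 in surviving, 4.93 and 4.78 in dying, 1.89 and 0.77 in sham and -0.58 and 0.89 in naïve neurons, and Birc5, survivin, differed by -1.02, with normexp at 0.15 and 0.17 for these 2 genes. Ripk3 was higher in both injured groups than in the control pools. The brightest, Diablo, differed by 0.49. DNA repair genes were tested for 45 of 58 members, and 7 were higher in surviving and 4 higher in dying neurons. Repair genes had a median of 0.37 (0.47 and 0.18 by dying array), 0.05 relative to all genes. Xpa, of nucleotide excision repair, differed by at least 1.93 and Rad1 by at least 2.14, while the ligase gene Lig1 gave -1.67, Cdkn1a, the p53 target p21, -1.64 and the brightest, Apex1, 0.72. Cell cycle and DNA replication genes were tested for 45 of 68 members, and 6 were higher in surviving and 8 higher in dying neurons, or 17.8% against the 6.72% of all genes. Cycle and replication genes had a median of -0.02 (-0.07 and 0.07 by dying array), -0.34 relative to all genes. Ccnd1, cyclin D1, read 3.47 and 3.09 in surviving, 5.04 and 5.68 in dying, 2.70 and 2.86 in sham and 2.13 and 1.75 in naïve neurons. Ttk, a spindle checkpoint kinase, differed by -2.46, the replication genes Mcm2 and Orc6 by at least 1.36 and 1.47 (another probe of Mcm2 gave 0.31), and the brightest, Ccne1, by -0.11, with -2.39 on another probe.

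Markers of microglia and macrophages had a median difference toward dying neurons on both arrays, but not every member was higher there. Of 15 on the array 13 were tested, and 0 were higher in surviving and 8 higher in dying neurons, or 61.5% against 6.72%. Their median was -1.65 (-1.92 and -1.37 by dying array), -1.97 relative to all genes. With normexp it was -0.19, and -0.87 relative to all genes. The 11 measured on every array summed to 382 and 438 in surviving, 2657 and 1340 in dying, 304 and 285 in sham and 157 and 341 in naïve neurons, in multiples of the array median. C1qb, of complement C1q with the strongest probe signal of them in dying neurons, read 6.57 and 7.03 in surviving, 9.82 and 8.78 in dying, 6.34 and 6.06 in sham and 4.98 and 6.07 in naïve neurons. Trem2, a lipid receptor of microglia, read 5.46 and 6.21 in surviving, 9.21 and 7.62 in dying, 4.92 and 4.88 in sham and 4.73 and 5.94 in naïve neurons. Tyrobp, its signalling partner, read 5.94 and 5.67 in surviving, 8.75 and 7.41 in dying, 4.38 and 4.56 in sham and 3.85 and 4.33 in naïve neurons. In all 3 genes dying replicate 1 was highest and dying replicate 2 next, and surviving pools were near or above the controls. Cd68, a lysosomal protein of phagocytes, differed by -1.82, Cd74 by -1.74, Aif1 by -1.45 (0.26 with normexp), C1qa by -1.85 and C1qc by -1.65. Aif1 read 3.63 and 3.25 in surviving against 5.14 and 4.64 in dying neurons, and controls matched the dying level (5.03 in sham and 4.63 in naïve neurons). Lgals3, galectin-3, was -1.60 with dying replicate 2 left out for a non-uniform spot. Csf1r, Itgam, Spi1 and Cx3cr1 overlapped between groups, with differences of -0.20, -0.59, -0.31 and 0.90, and Cx3cr1 was above background on only 1 dying array. On dying replicate 1, Csf1r, Itgam and Cx3cr1 lay below the surviving mean. What other cell types contributed to the genes higher in dying neurons was not tested.

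Complement and chemokine genes also had larger shares higher in dying neurons than all genes. Complement genes were tested for 23 of 30 members, and 0 were higher in surviving and 6 higher in dying neurons, or 26.1% against 6.72%. Complement had a median of -0.59 (-0.51 and -0.53 by dying array), -0.90 relative to all genes. Of the 6, 3 were the C1q chains that are also microglial markers, and the others were C5ar1, Cfb and C1s. C5ar1, the receptor for the C5a fragment, read 1.86 and 1.87 in surviving, 4.29 and 3.54 in dying, -0.77 and -0.67 in sham and -1.10 and -2.08 in naïve neurons. Control pools were not above background for it. Chemokines and receptors were tested for 33 of 47 members, and 0 were higher in surviving and 11 higher in dying neurons, or 33.3% against 6.72%. Chemokine genes had a median of -0.63 (-1.06 and -0.32 by dying array), -0.94 relative to all genes. They included Ccl2, Ccl3, Ccl4, Ccl6, Ccl12, Ccrl2, Cxcl1, Cxcl2, Cxcl14 and Pf4, from -2.57 to -1.13. Ccl12, a monocyte attractant, read -0.56 and 0.77 in surviving, 2.10 and 3.25 in dying, -2.31 and -1.23 in sham and -2.75 and -2.76 in naïve neurons, and Ccl6 2.75 and 1.25 in surviving against 3.67 and 4.18 in dying neurons. Ccl12 was above background in the injured rats alone. Cx3cl1, the neuronal ligand of the microglial receptor Cx3cr1 and the brightest, read 11.62 and 11.60 in surviving against 10.46 on replicate 2 alone in dying neurons, with dying replicate 1 left out for a non-uniform spot.

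Interleukins and receptors were tested for 30 of 60 members, and 2 were higher in surviving and 6 higher in dying neurons. Interleukin genes had a median of -0.21 (-0.39 and -0.02 by dying array), -0.53 relative to all genes. Il1r2, the decoy receptor of interleukin-1, read -0.69 and -1.12 in surviving, 1.54 and 2.52 in dying, -0.20 and -1.90 in sham and -1.47 and -1.82 in naïve neurons. It was above background on both dying arrays, on 1 surviving array and in no control pool. Sham replicate 1 still read above both surviving arrays, and the lowest signal called above background was higher on every control array. Il3ra differed by -1.78, Il16 by 1.48, Il2ra by at least 1.28 and the brightest, Il17b, by 0.24. The family of TNF, Toll-like receptor and NF-kappaB genes was tested for 36 of 66 members, and 3 were higher in surviving and 2 higher in dying neurons. Inflammatory receptors had a median of 0.03 (-0.19 and 0.07 by dying array), -0.29 relative to all genes. Tnfrsf1b, a TNF receptor of immune cells, read 1.49 and 0.45 in surviving, 3.76 and 3.19 in dying, 0.82 and 0.01 in sham and -2.66 and -0.22 in naïve neurons, and Ltb differed by -1.75. Tnfsf9 and the death receptor gene Tnfrsf21 were higher in surviving neurons, by 1.93 and 2.03, and the brightest, Traf7, differed by -0.50. Genes of MHC and antigen presentation were tested for 32 of 39 members, and 1 was higher in surviving and 2 higher in dying neurons. Presentation genes had a median of 0.12 (0.40 and -0.21 by dying array), -0.20 relative to all genes but 0.30 with normexp. RT1-Da, of class II, read 2.84 and 2.78 in surviving against 4.64 and 3.84 in dying neurons, alongside its chaperone gene Cd74, while RT1-N1 differed by 1.14 and B2m, the brightest, by -0.30.

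Extracellular matrix and integrin genes were tested for 84 of 123 members, and 7 were higher in surviving and 21 higher in dying neurons, or 25% against 6.72%. Matrix genes had a median of -0.34 (-0.44 and -0.15 by dying array), -0.66 relative to all genes, and 16 were over 2-fold higher in each dying array taken alone, beside 418 of all 9849 genes. Adamts7, a matrix protease, read 3.78 and 3.91 in surviving, 6.51 and 5.60 in dying, 1.43 and 1.09 in sham and 0.13 and 0.87 in naïve neurons. Lama5, a laminin chain of vessel walls, read 2.05 and 0.69 in surviving, 3.86 and 3.79 in dying, 1.70 and 2.45 in sham and 1.46 and 1.10 in naïve neurons. Both were highest in dying neurons, and other probes of Lama5 gave -3.06 and -0.16. The set also held the collagens Col1a2, Col5a3, Col16a1 and Col18a1, the integrins Itga7, Itga10, Itgb2, Itgb4, Itgb5 and Itgb7, and Thbs2, Bgn and Fn1. Timp1, a protease inhibitor and the brightest, read 10.14 and 8.52 in surviving, 10.88 and 10.37 in dying, 6.93 and 4.81 in sham and 3.02 and 4.01 in naïve neurons, high in both injured groups, and lost its direction with normexp (0.22). Of the 7 higher in surviving neurons, Adamts14 differed by at least 1.20, and Mmp17 was above background on no dying array and differed by -0.01 with normexp. Smc3, a cohesin subunit, and Itgb3bp, a centromere protein, were among the 7 by their symbols and are no matrix proteins.

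Markers of other cell types differed less. Endothelial and pericyte markers were tested for 12 of 16 members, and 0 were higher in surviving and 3 higher in dying neurons. Vessel markers had a median of -0.57 (-1.26 and -0.36 by dying array), -0.88 relative to all genes. The 11 measured on every array summed to 84.5 and 91.7 in surviving, 306 and 162 in dying, 161 and 140 in sham and 116 and 142 in naïve neurons. Vwf, von Willebrand factor, with the strongest probe signal in dying neurons, read 4.65 and 4.28 in surviving, 6.86 and 5.87 in dying, 4.65 and 4.20 in sham and 3.40 and 3.95 in naïve neurons, Kdr differed by -1.95 and Cldn5 by -1.05 (0.40 with normexp). Blood cell and leukocyte markers were tested for 9 of 17 members, and 0 were higher in surviving and 4 higher in dying neurons. Blood markers had a median of -0.74 (-1.25 and -0.57 by dying array), -1.05 relative to all genes, and summed to 363 and 421 in surviving, 685 and 833 in dying, 221 and 221 in sham and 223 and 162 in naïve neurons. S100a9, of neutrophils, read 0.44 and -0.99 in surviving, 1.98 and 2.23 in dying, -0.68 and -2.15 in sham and 1.85 and -2.43 in naïve neurons, and Hbb-b1, a globin, 7.36 and 7.69 in surviving against 6.98 and 9.23 in dying neurons. S100a9 was high on both dying arrays and 1 naïve array, Hbb-b1 on dying replicate 2 alone. Lcn2, lipocalin 2, differed by -0.74, whereas Mpo, also of neutrophils, differed by 0.48 and Lck by 0.47. Hbb differed by -1.38, Cd3d by -1.01 (0.34 with normexp) and Alas2 by -1.01 (0.12 with normexp).

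Astrocyte markers were tested for 11 of 12 members, and 2 were higher in surviving and 2 higher in dying neurons. Astrocyte genes had a median of -0.16 (0.21 and -0.09 by dying array), -0.48 relative to all genes. The 11 summed to 681 and 737 in surviving, 1465 and 675 in dying, 1945 and 1330 in sham and 1170 and 1413 in naïve neurons, with the strongest probe signal in Slc1a3. Gfap, the defining filament, read 3.57 and 2.73 in surviving, 1.10 and 3.62 in dying, 1.75 and 1.58 in sham and 1.43 and 2.10 in naïve neurons. It overlapped between surviving and dying neurons and was higher in injured rats, dying replicate 1 apart. Aldh1l1 differed by -1.66, Aldoc by -1.07 (-1.72 and -0.42 against replicates 1 and 2, and 0.60 with normexp), Glul by 1.37 and Slc1a2 by 1.30. Oligodendrocyte markers were tested for 12 of 13 members, and 0 were higher in surviving and 2 higher in dying neurons. Myelin genes had a median of -0.22 (-0.20 and -0.12 by dying array), -0.54 relative to all genes, and summed to 435 and 493 in surviving, 1204 and 726 in dying, 2505 and 2282 in sham and 1785 and 1569 in naïve neurons. The defining Mbp read 3.68 and 3.56 in surviving against 3.83 and 3.43 in dying neurons, Mog differed by -1.49 (-2.62 and -0.36 against replicates 1 and 2, and -0.25 on another probe), and Olig1, of the strongest probe signal in dying neurons, by -1.44 (0.12 with normexp). Oligodendrocyte precursor markers were tested for 4 of 4 members, and 0 were higher in surviving and 1 higher in dying neurons. Precursor genes had a median of -1.11 (-1.86 and -0.36 by dying array), -1.43 relative to all genes, and summed to 65.9 and 48.9 in surviving, 264 and 82.3 in dying, 143 and 97.1 in sham and 96.7 and 77.4 in naïve neurons. Cspg4, the proteoglycan NG2 of precursors and pericytes, read 3.97 and 4.26 in surviving, 7.11 and 5.27 in dying, 5.10 and 4.22 in sham and 4.57 and 4.35 in naïve neurons. Interneuron markers were tested for 11 of 13 members, and 0 were higher in surviving and 2 higher in dying neurons. Inhibitory genes had a median of -0.40 (-0.62 and -0.04 by dying array), -0.72 relative to all genes, and 10 of them summed to 213 and 220 in surviving, 813 and 225 in dying, 745 and 701 in sham and 540 and 720 in naïve neurons. Sst, somatostatin, read 5.42 and 4.23 in surviving, 8.50 and 4.68 in dying, 6.71 and 5.61 in sham and 5.77 and 7.64 in naïve neurons, and Vip 5.26 and 3.89 in surviving, 7.85 and 5.55 in dying, 6.73 and 7.25 in sham and 7.20 and 6.15 in naïve neurons. Both were highest in dying replicate 1, and Sst in dying replicate 2 lay between the surviving arrays. Reln, of interneurons in adult hippocampus, differed by -1.67 (0.00 with normexp), and Pvalb by 0.27.

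Families known from other tissues were counted for comparison. Olfactory receptors were tested for 508 of 1109 members, and 33 were higher in surviving and 23 higher in dying neurons. Odour receptor genes had a median of -0.09 (-0.43 and 0.16 by dying array), -0.41 relative to all genes. Their medians on the arrays were -0.01 and 0.15 in surviving against 0.44 and -0.18 in dying neurons. Or13c3f stood at least 3.51-fold higher in surviving neurons, Or14c39b differed by -1.40 and the brightest, Or4f7c, by 0.36. Vomeronasal and taste receptors were tested for 9 of 32 members, and 2 were higher in surviving and 0 higher in dying neurons, with a median of 0.48 (0.12 and 0.38 by dying array), 0.16 relative to all genes but -0.66 with normexp and -0.15 with the deposited series values and -0.18 with members above background on all 4 arrays. Testis genes were tested for 32 of 53 members, and 9 were higher in surviving and 2 higher in dying neurons. Their median was 0.28 (0.13 and 0.47 by dying array), -0.04 relative to all genes but 0.03 with quantile normalization. Spata6l stood at least 4.66-fold higher in surviving neurons, and Tex9 differed by -1.54. Keratins were tested for 19 of 33 members, and 1 was higher in surviving and 2 higher in dying neurons. Keratin genes had a median of -0.30 (-0.95 and 0.26 by dying array), -0.62 relative to all genes. Krt18 read 2.78 and 0.74 in surviving against 4.34 and 3.43 in dying neurons. Pancreas and gut enzymes were tested for 18 of 29 members, and 1 was higher in surviving and 0 higher in dying neurons, with a median of 0.14 (-0.27 and 0.33 by dying array), -0.18 relative to all genes but 0.01 with quantile normalization. Cytochrome P450 genes were tested for 36 of 69 members, and 5 were higher in surviving and 1 higher in dying neurons. Oxidase genes had a median of 0.12 (-0.09 and 0.33 by dying array), -0.20 relative to all genes. Cyp7b1, which hydroxylates oxysterols in brain, read 0.06 and 0.28 in surviving, -1.48 and -1.68 in dying, 3.36 and 2.57 in sham and 2.53 and 3.41 in naïve neurons, with dying replicate 1 not above background, and Cyp27a1, the mitochondrial sterol hydroxylase, 4.32 and 4.46 in surviving against -1.02 and 2.87 in dying neurons. Both sterol genes were low in dying neurons, as was Cyp51 of the cholesterol pathway, while Cyp11b1 differed by -1.82 (-3.22 and -0.41 against replicates 1 and 2).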

How the data were processed

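Messenger RNA of laser-captured CA3 neurons was measured on 8 Agilent 1-colour arrays, 2 pools each of naïve, sham, surviving and dying neurons. The array files deposited by the authors hold processed signals in intensity units, made with Agilent Feature Extraction 9.1.3.1, with local background subtracted, spatial detrending and no scaling between arrays. The surviving and dying arrays were extracted under a different protocol version from the sham and naïve arrays, so protocol and slide coincide. Mean signals and local backgrounds are also deposited as intensity. The other deposited columns used are marks of 0 or 1 per spot, among them well above background and non-uniform. The series values deposited by the authors are signals divided by a constant per array, with no log taken. Signal over background, which takes the place of depth, is given with the arrays in the report.

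Processed signals were averaged per probe without non-uniform spots, divided by the median of the array over 41012 probes besides controls, floored at 0.01 and put on the log2 scale. Probes carrying a RefSeq messenger RNA accession were counted when well above background on both arrays of surviving or of dying neurons. limma 3.58.1 in R 4.3.3 fitted 4 groups over 8 arrays, with the contrast surviving minus dying and Benjamini-Hochberg adjustment over all 27393 tested probes, RefSeq or not. Replicates carry only a number, so the fit was unpaired. A probe was called when group means differed over 2-fold and no arrays overlapped. Calls were counted in Python 3.11.15 with pandas 2.3.3, and a family was represented by 1 probe per gene, the one of highest mean signal.

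Gene names were those deposited, and for 10730 RefSeq probes the current RefSeq symbol. The 54 families and 9 marker lists were matched by symbol, and 149 genes in the study's tables of array expression were left out of the families and named genes, marker lists apart. One supplementary file repeats the text of another group of genes, so the 149 may be incomplete. Members and lists were chosen with earlier results of these data known. Named genes leave out those 149, marker lists apart. In each direction they are the 12 of smallest limma p above background on all 4 arrays and called. They are also, in each direction, the 6 of largest lower bound above background in only 1 of the surviving and dying groups. In each family they are the brightest member (highest mean signal) and up to 2 called members per direction. The marker genes are named as well. With the earlier results known, the rules, thresholds and alternatives were set before the values were computed, except where a later choice is named. Alternatives covered scaling, background correction, filters, floor, non-uniform spots, deposited values, the model and each replicate. No gene set test was made, and no genome sequence was used beyond the RefSeq promoters. Some members of the lists are counted but not reported here by name.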

Additional observations from a re-analysis of the deposited data

How the results depend on the processing

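The count past limma's adjusted p of 0.05 was 0 under every alternative run except the deposited series values (1) and leaving out dying replicate 2. That 1 probe is of Wfdc21, named after its values were seen, and was higher in dying neurons. Leaving out 1 replicate at a time gave 0 to 3127 probes past the threshold, 2991 to 5568 over 2-fold higher in surviving and 1252 to 2812 higher in dying neurons, and a median difference of 0.28 to 0.49. The highest counts, 3127, 5568 and 2812, came without dying replicate 2, where the lone dying sample was taken to vary as much as the other groups. Without surviving replicate 2 the surviving count was 5453, and without dying replicate 1 the dying count was 1572.

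Scaling to the median of RefSeq probes gave 2211 and 1765 probes over 2-fold and a median of 0.024, since it sets that median. Normexp gave 39 higher in dying neurons and a median of 0.59, and its offset of 50 lies above the median signal of dying replicate 1 (19.2). Probes above background on all 4 arrays gave 2061 higher in surviving neurons and a median of 0.21, and no filter gave a median of 0.14. Requiring replicates within 1.5 times, the filter of the methods, gave 462 and 112 and no p. The cause of these shifts was not tested, apart from fewer or more probes entering.

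A paired model with a replicate block gave 0 past the threshold, 2667 at an unadjusted p under 0.05 and a median of 0.373. Surviving and dying samples share only a number, and their differences between replicates correlated at -0.15. Crossing the numbers, chosen after seeing the data, gave 2657.

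Of 223 named genes called over 2-fold without overlap of the arrays, 22 changed sign with normexp. Under the other alternatives of scaling, filter, model and replicate that gave them a value, 0 did. Leaving out a replicate cannot turn a gene without overlap, and a filter or model leaves its measured values as they were. For those alternatives the 0 was therefore fixed beforehand. With normexp the values were Grin2c 0.051, Timm44 -0.031, Rpl36 0.077, Cryab 0.087, Bag3 0.42, Ctsc 0.14, Atg16l2 0.32, Hdac10 0.21, Ripk3 0.15, Birc5 0.17, Timp1 0.22, Mmp17 -0.013, Or4a70 -0.077, V1rm3 -0.027, Ldhc -0.018, Reln 0.0014, Aldoc 0.60, Aif1 0.26, Olig1 0.12, Cldn5 0.40, Cd3d 0.34 and Alas2 0.12, and the cause was not tested. Of 101 other named genes, 47 changed sign with normexp, 17 with RefSeq-median scaling, 10 with the deposited values and 7 each with quantile normalization and 75th percentile scaling. Without dying replicate 1, 31 of 100 did, and without dying replicate 2, 15 of 98. Of 63 list medians, 51 moved by more than the spread between replicates with normexp, 35 with RefSeq-median scaling, 12 without dying replicate 1 and 17 without dying replicate 2.

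Signal over background sets the limits. Dying replicate 1 had 14145 RefSeq probes above background, against 16839 on dying replicate 2, so a low value there is the least certain. With 2 pools per group, 1 dying array decides whether a gene is called, and folds of probes not above background in 1 group are lower bounds.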
